A study of Rattus norvegicus with 23 samples.

Results

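The zinc finger protein genes described here are the protein-coding rat genes whose symbol is Zfp followed by a number, leaving out Zfp36, a CCCH-type RNA-binding protein that only shares the prefix. They were chosen by name alone, and 226 of the 19249 genes in the table fitted. Expression was measured by RNA-seq in lung pieces of male rats that breathed eucalyptus smoke with the whole body, on 4 days in week 1 and, after a break of 3 days, on 3 days in week 2. The 3 groups were filtered air (7 libraries), low smoke with a target carbon monoxide concentration of 10 ppm (8 libraries) and high smoke with a target of 20 ppm (7 libraries). Each library came from a different rat. Strain and age were not given in the labels, all the rats were male, and the lung pieces were not sorted into cell types. One further high smoke sample, labelled as dropped for quality, was not analysed here, and the protocol in the labels also says that 1 air sample was dropped for quality.

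Most proteins with this prefix carry C2H2-type zinc fingers, short loops folded around a zinc ion that read DNA bases in series. Many add a KRAB domain, which recruits the corepressor Trim28 together with histone methyltransferases and heterochromatin proteins, and this machinery is best known for silencing transposable elements. Other members bind RNA, act as ubiquitin or SUMO ligases, or join chromatin complexes without a KRAB domain. The genes often lie in tandem clusters. The symbol does not separate these kinds, and protein sequences were not analysed here, so the set is mixed in function.

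The values are normalized counts, gene counts divided by a size factor for each library, so levels were compared within a gene and not between genes. Library depth was 8484131 to 12055512 read equivalents. A principal component analysis of all genes tested placed high smoke replicates 1, 3 and 7 at 36.5 to 51.5 on its leading axis (19.7% of variance). The rest of the high smoke group lay at 0.3 to 8.8 and the air and low smoke libraries at -21.6 to -0.3. These 3 libraries stood apart from their own group, and each main count below is also given without them. Per library, 220 to 226 of the 226 members were above 0, and 216 members were above 0 in all 22 libraries.

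Testing required a mean of at least 10 across all 22 libraries, and 208 members passed. The 18 that did not had means of 0.575 (Zfp92) to 9.31 (Zfp185), and none was at 0 in every library. Differences are on the log2(value + 1) scale from a limma fit of the 3 groups. A gene is said to have risen or fallen where its adjusted p, by Benjamini-Hochberg over the 14414 genes tested, was below 0.05.

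Few of these genes passed the threshold in high smoke, and the differences of those that did were small. Against air, 8 members rose and 13 fell, together 21 of 208 (10.1%), where 16.3% of all genes tested passed. Without adjustment, 51 members had a p below 0.05, as did 30.7% of all genes. The members that rose were 3.85% of those tested against a background of 9.21%, and those that fell were 6.25% against 7.05%. No test was made of these differences in share, and the order for the falls depended on the scaling, as given below. The largest rise was 1.61-fold (Zfp524) and the largest fall was to 0.689 of the air level (Zfp9). Changes under 1.5-fold made up 20 of the 21, and the median size was 0.36 on the log2 scale.

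All 21 calls ended without high smoke replicates 1, 3 and 7: 0 members passed in limma, where 124 of all genes tested (0.861%) passed. Unadjusted, 18 members had a p below 0.05, and no share of all genes was taken for that count. A high smoke group of 4 libraries also gives less power. For all 21, which were chosen with all 7 high smoke libraries in the fit, the size was smaller in the other 4 libraries, with a median of 0.22 on the log2 scale against 0.56 in the 3. With every library scaled to the same total, 4 members rose and 28 fell, and Zfp394, Zfp503, Zfp703 and Zfp282 no longer passed. The falls were then 13.5% of members against 12.5% of all genes, and the rises 1.92% against 6.2%. With upper quartile scaling 6 rose and 17 fell, where the falls were 8.17% against 8.32% and the rises 2.88% against 8.24%.

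**Figure D1:**
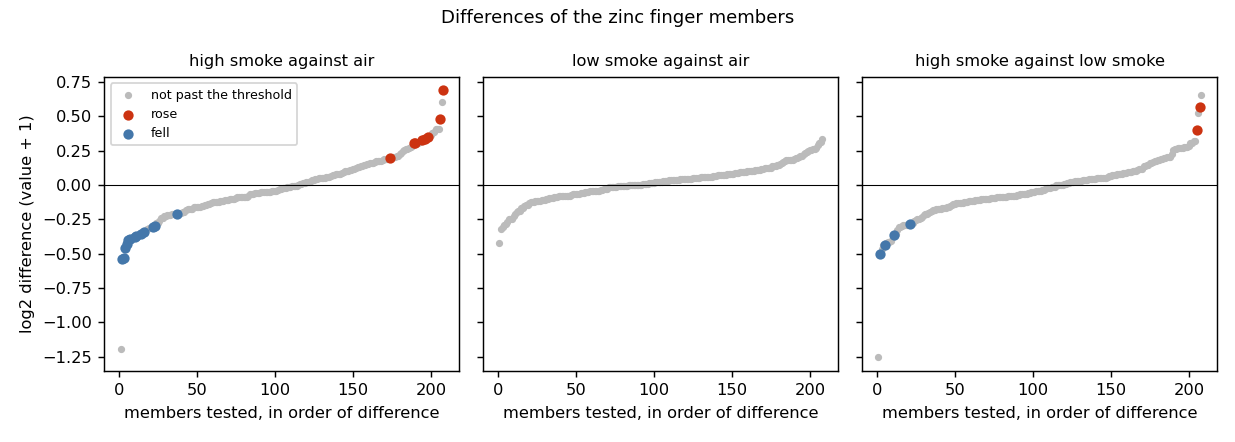
Differences of the 208 members tested, in order, on the log2(value + 1) scale (y axis) for the 3 comparisons. Each point is 1 gene, red points rose and blue points fell. In high smoke against air 8 red and 13 blue points lie toward the ends of the curve, in low smoke against air there are none, and in high smoke against low smoke there are 2 and 4. The lowest grey point in the outer panels is Zfp483, which did not pass.

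Zfp524, a protein known to bind telomeric DNA, had the largest rise past the threshold. Its gene lies at chr1:72376386-72377435 (minus strand, rn6). Its normalized counts in air were 55.4 at the lowest, 64.2 at the median and 73.7 at the highest. In low smoke these were 52.5, 66.7 and 96.9, and in high smoke 72.7, 104 and 137. The air and high smoke ranges met at their edges, and the 3 highest libraries of all were high smoke replicates 1, 3 and 7. The mean rose from 64.0 ± 7.22 (SD, n = 7) to 106 ± 26.0 (SD, n = 7), a difference of 0.69 ± 0.15 (SE) with an adjusted p of 0.00378 in limma. In the 3 libraries the difference from air was 1.03, and in the other 4 it was 0.43.

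Zfp637 (chr4:149877889-149882825, plus strand, rn6) had counts of 56.6, 70.0 and 98.3 in air at the lowest, median and highest. In low smoke they were 60.8, 75 and 82.5, and in high smoke 79.2, 97.8 and 117. One air library, replicate 3, lay among the high smoke values, and the other 6 air libraries lay below all 7 of them. The mean rose from 70.7 ± 14.9 to 98.0 ± 13.9 (SD, n = 7 each), a difference of 0.48 ± 0.12 (SE) with an adjusted p of 0.0104 in limma. Its difference from air was 0.61 in the 3 libraries that stood apart and 0.38 in the other 4.

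Among the falls, Zfp672 (chr10:43752700-43760931, minus strand, rn6) had the smallest p of all members. Its counts were 196, 213 and 232 in air at the lowest, median and highest. They were 156, 192 and 232 in low smoke and 149, 167 and 186 in high smoke. Every high smoke library was below every air library, and the low smoke values spanned both groups. The fall was 0.38 on the log2 scale (SE 0.08), from 216 ± 12.2 to 166 ± 12.4 (SD, n = 7 each), with an adjusted p of 0.00329 in limma. Here the 3 libraries differed little from the rest of their group, with -0.42 against -0.35, and the adjusted p without them was 0.0892.

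Zfp512 (chr6:26284748-26314845, minus strand, rn6) had counts of 494, 573 and 628 in air at the lowest, median and highest. Low smoke gave 472, 508 and 603, and high smoke 339, 421 and 510. The high smoke values fell into 3 low libraries, replicates 1, 3 and 7, and 4 higher ones that reached into the air range. Its mean fell from 562 ± 49.5 to 430 ± 69.2 (SD, n = 7 each), a difference of -0.40 ± 0.09 (SE) with an adjusted p of 0.0052 in limma. The difference from air was -0.62 in the 3 libraries and -0.23 in the other 4.

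The promoters of these 4 genes, the leading 2 in each direction, are shown to let the base composition and GC boxes of members that moved in opposite directions be compared. They are RefSeq sequences of build GRCr8 with 250 bases before and 50 after the annotated start, read 5′ to 3′ on the gene's strand. Capitals mark a GC box, GGGCGG on either strand, the core of the sites that Sp and Klf factors bind.
Zfp524: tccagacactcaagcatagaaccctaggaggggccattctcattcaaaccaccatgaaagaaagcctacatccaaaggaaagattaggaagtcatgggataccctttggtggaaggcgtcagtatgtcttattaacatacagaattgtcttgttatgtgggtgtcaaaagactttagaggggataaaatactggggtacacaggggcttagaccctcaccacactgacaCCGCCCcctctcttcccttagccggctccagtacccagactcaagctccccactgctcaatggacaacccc
Zfp637: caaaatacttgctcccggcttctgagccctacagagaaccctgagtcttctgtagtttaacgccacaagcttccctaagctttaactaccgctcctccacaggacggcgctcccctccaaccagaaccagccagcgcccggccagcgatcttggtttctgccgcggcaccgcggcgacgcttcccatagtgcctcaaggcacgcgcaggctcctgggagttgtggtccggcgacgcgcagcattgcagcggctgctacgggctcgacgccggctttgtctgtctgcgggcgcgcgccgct
Zfp672: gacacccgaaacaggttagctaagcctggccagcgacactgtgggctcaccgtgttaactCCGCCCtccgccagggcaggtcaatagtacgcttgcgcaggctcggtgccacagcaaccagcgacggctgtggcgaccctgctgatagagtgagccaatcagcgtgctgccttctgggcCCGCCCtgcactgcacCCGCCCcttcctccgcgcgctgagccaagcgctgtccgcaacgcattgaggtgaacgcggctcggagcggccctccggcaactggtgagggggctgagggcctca
Zfp512: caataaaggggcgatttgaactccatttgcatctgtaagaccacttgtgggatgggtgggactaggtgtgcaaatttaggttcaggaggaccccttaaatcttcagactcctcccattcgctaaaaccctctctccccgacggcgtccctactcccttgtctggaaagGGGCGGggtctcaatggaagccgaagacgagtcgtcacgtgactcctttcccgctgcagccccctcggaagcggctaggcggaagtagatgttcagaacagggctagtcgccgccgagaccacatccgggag
They lie at chr1:77854647-77854946 (minus strand), chr4:152677496-152677795 (plus strand), chr10:43005177-43005476 (minus strand) and chr6:30727842-30728141 (minus strand) of GRCr8, in the order shown.

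The 4 promoters did not share 1 pattern: Zfp672 held 3 GC boxes, Zfp524 and Zfp512 held 1 each, and Zfp637 held 0. Of the 226 members, 219 were matched to RefSeq by symbol, 1 by synonym (Zfp161, listed there as Zbtb14) and 6 were not matched, and 184 had a promoter sequence. Of these, 84 (45.7%) held a GC box, against 60.4% of 10266 promoters of genes tested and 34.5% of 27457 promoters in the whole table. The core GCGTG, the letters at the heart of the site of the aryl hydrocarbon receptor, was found in 45.1% of the members, 48.1% of genes tested and 30.7% of all promoters. For TGACNNNGC, the core of the antioxidant response element, the shares were 10.3%, 14.6% and 12.2%. For TATAAA they were 8.7%, 6.98% and 14.3%. Both strands were searched and each motif was counted alone, so matches of different motifs could overlap. A CpG observed-over-expected ratio above 0.6 was found in 67.9% of members against 68.7% of genes tested. The median ratio was lower in members, at 0.71 against 0.75, as was the median GC content, at 57.8% against 60.7%. The members with a promoter include some that were not tested. Among members that passed in high smoke against air, promoters were matched for 5 that rose and 10 that fell, and 3 of each held a GC box. A match is a description of letters, not of binding.

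**Figure D2:**
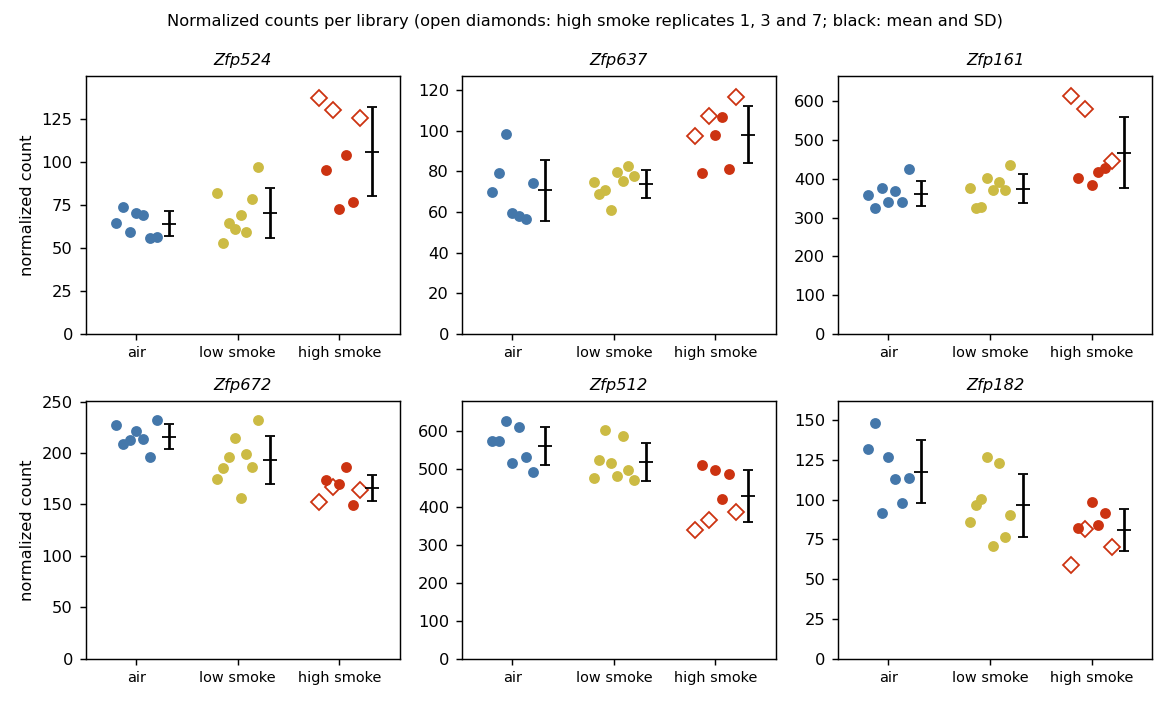
Normalized counts (y axis, from 0) of the 3 members with the smallest p that rose (top row) and the 3 that fell (bottom row). Each point is 1 library, open diamonds are high smoke replicates 1, 3 and 7, and black bars give the mean and SD of each group. The diamonds are the 3 highest high smoke points for Zfp524 and Zfp161 and the 3 lowest for Zfp512 and Zfp182, while for Zfp672 they lie among the others.

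The other 6 members that rose did so by 1.15-fold to 1.28-fold. Zfp161, a BTB-domain repressor also named Zbtb14, went from 362 ± 33.1 in air (range 325 to 425) to 468 ± 91.3 in high smoke (385 to 614; SD, n = 7 each). Its difference of 0.35 ± 0.10 (SE) had an adjusted p of 0.0166 in limma, and high smoke replicates 1 and 3, at the top of that range, lay well above the other 5. Zfp394, a KRAB and SCAN domain protein known to repress AP-1 targets, went from 154 ± 8.58 (144 to 164) to 192 ± 23.9 (162 to 232), with an adjusted p of 0.0174 in limma. The groups overlapped at their edges.

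Zfp503 and Zfp703, related corepressors of the NET family that act in organ patterning, both rose. Zfp503 went from 329 ± 44.2 (267 to 404) to 406 ± 53.1 (322 to 504), with an adjusted p of 0.0338 in limma. Zfp703 went from 396 ± 64.6 (321 to 514) to 495 ± 62.3 (412 to 579), with an adjusted p of 0.0355 in limma. In both genes the ranges of the groups overlapped over several libraries. Zfp133 rose from 350 ± 43.7 to 446 ± 92.3, with an adjusted p of 0.025 in limma. Zfp282, known to bind a retroviral repeat element, rose the least, from 381 ± 39.9 (329 to 447) to 437 ± 22.9 (417 to 478), with an adjusted p of 0.0422 in limma. Its size did not rest on the 3 libraries that stood apart, with 0.21 in them and 0.19 in the other 4.

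Among the falls, Zfp182 on the X chromosome went from 117 ± 19.8 (91.8 to 148) to 81.1 ± 13.2 (59.0 to 98.8; SD, n = 7 each), a difference of -0.53 ± 0.14 (SE) with an adjusted p of 0.0122 in limma. The groups overlapped between 91.8 and 98.8. Zfp612 went from 138 ± 21.8 to 101 ± 16.3, a difference of -0.46, with an adjusted p of 0.0144 in limma. Zfp9 went from 20.8 ± 3.03 (17.3 to 26.8) to 14.0 ± 1.87 (11.9 to 16.7), a difference of -0.54, with an adjusted p of 0.0198 in limma. Its 2 groups did not overlap.

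Zfp317 fell from 293 ± 43.0 (255 to 362) to 225 ± 23.4 (193 to 249), with an adjusted p of 0.0188 in limma, and its groups did not overlap either. Zfp131, a BTB-domain protein, fell from 401 ± 28.7 (366 to 447) to 346 ± 15.8 (324 to 366), with an adjusted p of 0.0323 in limma. Its small difference of -0.21 was of like size in the 3 libraries (-0.22) and the other 4 (-0.21). Together with Zfp672 these were the 4 members past the threshold whose air and high smoke ranges lay apart. Including Zfp687, which did not pass, 5 of 208 members had ranges apart, where 1.87% of all genes tested did.

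Zfp445, which helps to keep DNA methylation at imprinted genes, fell from 331 ± 50.8 to 251 ± 47.0 (SD, n = 7 each), a difference of -0.40 ± 0.11 (SE) with an adjusted p of 0.0195 in limma. Its air range of 229 to 384 overlapped the high smoke range of 192 to 315, with air replicate 3 the lowest air library. Zfp57, the other imprint-keeping member, had 214 ± 28.7 in air and 231 ± 26.2 in high smoke, with an adjusted p of 0.427 in limma. Zfp827, which recruits the NuRD complex to telomeres in some tumour cells, fell from 86.7 ± 16.1 to 64.0 ± 11.7, with an adjusted p of 0.0294 in limma. The difference from air was -0.68 and -0.70 in the 3 libraries for Zfp445 and Zfp827, against -0.20 and -0.23 in the other 4.

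The remaining 4 that fell were Zfp17, Zfp184, Zfp629 and Zfp426, to 0.779 to 0.813 of the air level, with adjusted p from 0.0287 to 0.0445 in limma. Zfp426 came after the 12 falls taken by the naming rule and was added after its values were seen. Among these 4 falls, Zfp629 differed most between the 2 sets of high smoke libraries, with -0.56 in the 3 and -0.10 in the other 4. Just outside the threshold were Zfp639 (0.26, adjusted p of 0.0506 in limma) and Zfp142 (-0.22, adjusted p of 0.0519 in limma).

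**Figure D3:**
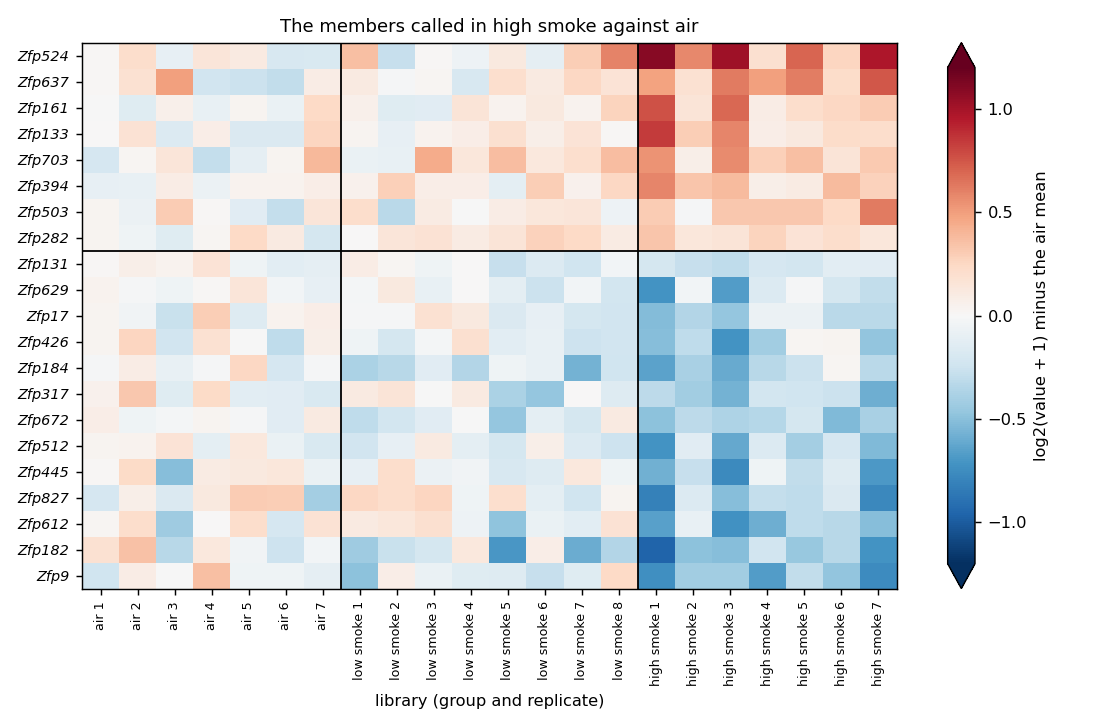
The 21 members past the threshold in high smoke against air (rows, rises above the line and falls below it) in each of the 22 libraries (columns). Color gives log2(value + 1) minus the gene's air mean, red higher and blue lower. Averaged over the falls, high smoke replicates 1, 3 and 7 lay at -0.61 to -0.50, the other 4 high smoke libraries at -0.29 to -0.23 and the low smoke libraries at -0.24 to -0.00.

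Small nucleolar RNAs also differed in the same libraries, while genes of the mitochondrial genome set only replicate 1 apart. Small nucleolar RNAs (46 rows, non-coding RNAs that guide chemical modification of other RNAs) lay 1.95 to 2.41 above the air mean (log2) in high smoke replicates 1, 3 and 7, and 0.77 to 1.53 above it in the other 4. In low smoke they lay 0.14 to 1.18 above it, and air libraries spread from -1.04 to 0.93. The 13 coding genes of the mitochondrial genome lay at -0.98 in high smoke replicate 1. Replicates 3 and 7, at -0.25 and -0.34, lay within the range of the other 4 high smoke libraries, -0.42 to 0.19. Air libraries lay at -0.20 to 0.27 and low smoke libraries at -0.38 to 0.25. The part of either measure in the members' differences was not tested.

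The lung label was met by its markers: the 5 markers of alveolar type 2 cells summed to 110179 to 151279 normalized counts in air, 108247 to 169220 in low smoke and 144528 to 217672 in high smoke, and 2 of them rose. The 5 markers of alveolar type 1 cells summed to 23017 to 31154 in air, 25384 to 41233 in low smoke and 30939 to 39347 in high smoke, and 2 of them rose. Both red cell markers rose, with sums of 3755 to 5666 in air, 3569 to 7396 in low smoke and 5864 to 13340 in high smoke, and 2 of 3 smooth muscle markers rose, with sums of 11430 to 19553, 13802 to 18036 and 14615 to 23749 in the same order. Of the other lists, 1 of 4 endothelial, 1 of 4 B cell and 1 of 2 cilia markers rose and 1 of 3 macrophage markers fell, and no T cell, cardiac muscle or fibroblast marker passed. None of the markers was at 0 in every library of a group. In whole tissue, fewer cells of a type and less RNA per cell cannot be told apart, and the part of cell makeup in the members' differences was not tested.

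The bulk of the family stayed close to its air level in high smoke. The median difference of the 208 members was -0.03, with the middle 50% between -0.15 and 0.14, and 55.3% lay below 0. For all genes tested the median was -0.00, the middle 50% lay between -0.16 and 0.18, and 50.4% were below 0. With every library scaled to the same total these medians became -0.10 for members and -0.08 for all genes. Members took 0.63% ± 0.0233 of all counts in air, 0.622% ± 0.0184 under low smoke and 0.595% ± 0.0218 under high smoke (means and SD over 7, 8 and 7 libraries).

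The largest difference of any member did not pass. Zfp483, singled out after its values were seen, had 7.56, 15.6 and 22.5 in air at the lowest, median and highest, and 0, 6.93 and 20.3 in high smoke. Its groups overlapped widely, and the difference of -1.19 ± 0.44 (SE) had an adjusted p of 0.0671 in limma. The median SE was 0.12 for the members and for all genes tested.

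The share of members that passed was compared with that of all genes at like levels. Of 46 members with a mean of 10 to 50, 1 passed (2.17%, against 6.39% of all genes at that level). At 50 to 100 the order was the other way, with 5 of 40 (12.5% against 11.8%). At 100 to 200, 4 of 42 passed (9.52% against 14.5%). Of 40 at 200 to 400, 7 passed (17.5% against 18.6%). At 400 and over the shares stood furthest apart, with 4 of 40 members (10%) against 23.9% of all genes. No test was made of these differences.

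**Figure D4:**
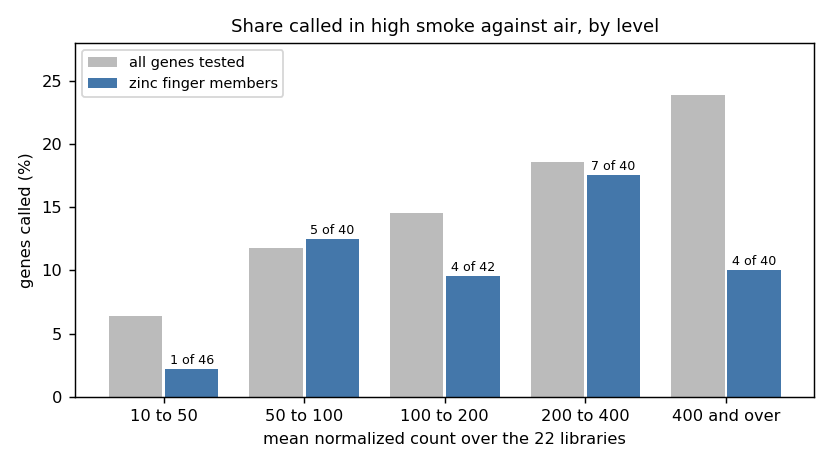
Share of genes past the threshold in high smoke against air (y axis, percent, from 0) by mean normalized count over the 22 libraries (x axis), for all genes tested (grey) and the members (blue, with counts). The shares lie near each other from 50 to 100 and from 200 to 400, and furthest apart at 400 and over.

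Members with known roles were taken from a list by role, which was not checked for KRAB domains. The 8 members that act on RNA or translation had 0 past the threshold in high smoke against air, where 16.3% of all genes tested passed. Only 1 had an unadjusted p below 0.05 in limma (Zfp638), where 30.7% of all genes did. Their median difference was -0.10 and 7 of the 8 lay below 0, where 50.4% of all genes did. Zfp106, an RNA-binding protein needed by motor neurons and muscle, had 2005 ± 305 in air and 1741 ± 260 in high smoke (SD, n = 7 each), with an adjusted p of 0.168 in limma. Zfp638, a nuclear DNA- and RNA-binding protein, had 1771 ± 150 and 1609 ± 111, with an adjusted p of 0.118 in limma. The differences of the other 6 lay between -0.15 and 0.01. They include Zfp598, the ubiquitin ligase that marks collided ribosomes (-0.05), and Zfp622, which acts in maturation of the large ribosomal subunit (-0.02).

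The 2 ligases did not pass in high smoke against air, where 16.3% of all genes tested did. Zfp91, a ubiquitin ligase, had 3450 ± 418 in air and 3573 ± 367 in high smoke (SD, n = 7 each). Zfp451, a SUMO ligase, had 607 ± 58.3 and 638 ± 49.5. The naming rule also took 6 members for their normalized counts in air, which are not corrected for gene length: Zfp91, Zfp266, Zfp106, Zfp706, Zfp609 and Zfp638. None of these 6 passed in high smoke against air, beside the same 16.3% of all genes.

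Of 18 members listed as chromatin or transcription factors, Zfp503 and Zfp703 rose (11.1%, near the 9.21% of all genes) and 0 fell, where 7.05% of all genes did. Zfp687, a partner of the chromatin reader Zmynd8, had 242 ± 13.4 in air (226 to 268) and 211 ± 16.5 in high smoke (183 to 226; SD, n = 7 each). Its ranges lay just apart, yet the adjusted p was 0.0651 in limma. Zfp384 had 1149 ± 123 and 1326 ± 200, with an adjusted p of 0.106 in limma. The list's median was 0.00, beside -0.00 for all genes tested.

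Low smoke against air gave 0 members past the threshold in limma, where 0% of all genes tested passed. Unadjusted, 9 of 208 members had a p below 0.05, and 6.4% of all genes did; an exact two-sided rank-sum test also gave 0 members past the threshold and 10 unadjusted. The member with the smallest p was Zfp868, with 109 ± 20.3 in air (SD, n = 7) and 87.7 ± 12.2 in low smoke (SD, n = 8), a difference of -0.31 and an adjusted p of 0.702 in limma. The next were Zfp184 (-0.27), Zfp281 (0.17), Zfp282 (0.15), Zfp653 (-0.42) and Zfp182 (-0.29), with adjusted p from 0.724 to 0.766 in limma. In each of these the ranges of air and low smoke overlapped, as they did for all 208 members, where 0.0416% of all genes had ranges apart. The members' median difference was 0.03.

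High smoke against low smoke gave 6 members past the threshold (2.88%), where 6.78% of all genes tested passed. Without adjustment, 42 had a p below 0.05, as did 25.6% of all genes. Zfp524 and Zfp637 rose, against a background of 3.8%, and Zfp827, Zfp612, Zfp445 and Zfp512 fell, against 2.98%. These 6 also passed against air, and both comparisons share the high smoke libraries. Zfp524 went from 70.4 ± 14.6 in low smoke (SD, n = 8) to 106 ± 26.0 in high smoke (SD, n = 7), with an adjusted p of 0.0275 in limma. Zfp827 went from 90.3 ± 11.6 to 64.0 ± 11.7, a difference of -0.50 with an adjusted p of 0.0284 in limma. Zfp612 (-0.44), Zfp445 (-0.37) and Zfp637 (0.40) had adjusted p from 0.0328 to 0.0463 in limma, and Zfp512 (-0.28) lay at the threshold with 0.04999. Over the 22 fits that each left out 1 library, Zfp512 kept its call in 5, Zfp445 in 9 and Zfp637 in 11. Zfp612 kept it in 14, and Zfp524 and Zfp827 in 17. The exact rank-sum test gave 0 members past the threshold, against 1.27% of all genes. No member had ranges apart, where 0.694% of all genes did. Without high smoke replicates 1, 3 and 7, 0 members passed in limma, where 0% of all genes passed. Unadjusted, 8 members had a p below 0.05, and no share of all genes was taken for that count. With every library scaled to the same total, 1 rose and 9 fell. The falls were then 4.33% of members against 4.39% of all genes, and the rises 0.481% against 2.87%. With upper quartile scaling 1 rose and 6 fell, where the rises were 0.481% of members against 3.3% of all genes and the falls 2.88% against 3.68%.

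Genes of the KRAB corepressor machinery, through which many of these proteins act, moved in both directions. Of 28 tested, 1 rose and 2 fell in high smoke against air (10.7%, background 16.3%), and the list's median was -0.01. Smarcad1, a chromatin remodeller that works with Trim28, fell from 871 ± 120 to 650 ± 71.6 (SD, n = 7 each), with an adjusted p of 0.00247 in limma.

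Morc3, a chromatin ATPase that silences retroelements, fell from 1400 ± 154 to 1086 ± 126, with an adjusted p of 0.0033 in limma. Rbbp7, a histone chaperone of the NuRD complex, rose by 0.22 on the log2 scale, with an adjusted p of 0.018 in limma. Smarcad1, Morc3 and Rbbp7 lost their calls without the 3 libraries, and Rbbp7 also with every library scaled to the same total. Trim28 itself had 1703 ± 209 in air and 1902 ± 167 in high smoke, with an adjusted p of 0.125 in limma. Gatad2b, a NuRD subunit, had 695 ± 117 and 585 ± 80.2, with an adjusted p of 0.113 in limma. In high smoke against low smoke 3 of the 28 rose (Trim28, Rbbp7 and Daxx) and 2 fell (Gatad2b and Smarcad1), 17.9% against 6.78% of all genes. The adjusted p of these 5 lay between 0.0305 and 0.0498 in limma. Without the 3 high smoke libraries 0 of all genes tested passed in this comparison, and Smarcad1, Rbbp7 and Gatad2b had adjusted p from 0.71 to 0.82 in limma. Over the 22 single omissions Rbbp7 kept its call in 6, Smarcad1 in 8 and Gatad2b in 16. In the 11 alternatives other than leaving out libraries they kept it in 3, 8 and 11. Trim28 and Daxx were not followed through the alternatives.

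Other zinc finger families chosen by symbol gave shares on either side of the background of 16.3% in high smoke against air. Among Zbtb genes 5 rose and 2 fell of 38, and among Zscan and Zkscan genes 1 rose and 1 fell of 15. Of 5 Znf genes 2 rose. Klf genes, which bind GC-rich DNA, had 1 rise and 1 fall of 13, and Zc3h genes, RNA-binding CCCH proteins, had 2 falls of 15. Zdhhc genes, enzymes that attach palmitate to proteins, had 2 rises and 2 falls of 20. In low smoke against air no gene of these families passed, where 0 of all genes did.

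The members lie on 21 chromosomes, with 57 on chromosome 1, 20 on chromosome 10 and 16 each on chromosomes 4 and 7. Runs of at least 4 members with gaps of at most 500 kb formed 10 clusters with 59 members. Of the 55 tested in clusters, 2 rose and 2 fell in high smoke against air (7.27%). Outside clusters 6 rose and 11 fell of 153 (11.1%). Both shares were below the 16.3% of all genes tested, and the difference between them was not tested. The largest cluster, at chr4:77495663-78258546 (rn6), holds 9 members, Zfp786, Zfp398, Zfp282, Zfp212, Zfp956, Zfp777, Zfp746, Zfp467 and Zfp775. Only Zfp282 among these 9 rose and none fell, and the cluster's median was -0.02. A chromosome 1 cluster of 7 members from Zfp84 to Zfp382 had a median of -0.12 with 0 past the threshold.

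Members were shorter than other genes, with a median span of 11.8 kb against 20.7 kb for all genes tested. Span and difference in high smoke against air had a Spearman rho of -0.21 across the 208 members and -0.19 across all genes tested. This is a description across genes of the same libraries, which are not independent replicates. The short 50% of members had 6 rises and 5 falls, and the long 50% had 2 rises and 8 falls. All genes split at the same span shifted likewise: 13.9% rose and 4.87% fell among the short, and 6.71% rose and 8.2% fell among the long.

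Near-identical members can share reads, and how such reads were split was not given in the sources used here. Of 202 members with values under 1000 reads, 145 (71.8%) had every such value within 0.02 reads of a whole number, and 24 (11.9%) had fewer than 50% of them so. For all protein-coding genes tested the shares were 79% and 14.4%. In high smoke against air 17 of the 145 passed (11.7%), 4 of the 33 in between (12.1%) and 0 of the 24, beside 16.3% of all genes tested, and these shares were not tested against each other. Zfp142, Zfp418, Zfp52, Zfp51, Zfp622, Zfp526, Zfp958 and Zfp707 had no whole value.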

How the data were processed

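Per the submitters' processing notes, reads were aligned with STAR 2.7.3a to rn6 and processed in Partek with DESeq2. The values the authors deposited are signal, that is, counts per gene scaled by each library's size factor. Whether counting used strand, and how shared reads were split, is not given in the sources used here. Of the values below 1000 reads, just 82.1% to 84.1% were whole to within 0.02 reads, so reads were not recovered and no count model was run. Depth, 8484131 to 12055512 read equivalents, limits the precision of low genes most.

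From the deposited signal values, log2(value + 1) was fitted with limma 3.58.1 (with an intensity trend, not robust) under R 4.3.3, all 3 groups in 1 model, 3 two-sided contrasts, a filter that kept the 14414 of 19249 genes whose mean was 10 or more and Benjamini-Hochberg adjustment over all of them. The pseudocount of 1 understates the change of low genes. Groups came from the treatment label, and replicate numbers are only names. The method was tested on simulated data. Alternatives were other pseudocounts, filters and scalings, robust shrinkage, array weights, 2-group fits, a rank-sum test and leaving out libraries.

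Named genes were up to 12 members past the threshold with the smallest p in each direction against air and against low smoke, the 6 with the smallest unadjusted p where fewer than 5 passed in a comparison, the 6 highest in air, 30 members of a list of 33 with known roles, and the 4 corepressor genes with the smallest p. One gene of the corepressor list is not reported here and is left out of its counts. The members and all lists were chosen with earlier results of these data known. Promoters came from RefSeq build GRCr8. Protein sequences were not analysed here, so the planned grouping by fingers and KRAB domain was not made.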

Additional observations from a re-analysis of the deposited data

Results flagged for a closer look

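For the 55 named genes and 2 summaries of the family (mean level and share of all counts), 171 groups of libraries were checked for a single library far from its group, by the gap to its neighbour over the group's range. Chance marks about 1 in 20 groups, and 7 were marked. Air replicate 3 was the lowest air library for 4 genes: Zfp445 at 229 normalized counts (next 309), Zfp106 at 1370 (next 1960), Zfp451 at 489 (next 592) and Gatad2b at 447 (next 675). Air replicate 5 was the highest air library for Zfp326, at 359 (next 246). High smoke replicate 1 was the lowest of its group for Zfp830, at 21.7 (next 29.1). Low smoke replicate 8 was the highest of its group for Zfp687, at 279 (next 227).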

How the results depend on the processing

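No member past the threshold changed direction under any alternative run, nor did Smarcad1, Morc3, Rbbp7 or Gatad2b where they passed. The direction of other genes was not checked. The medians, all near 0, did cross it: high smoke against air went from -0.026 to 0.0076 without high smoke replicates 1, 3 and 7. Low smoke against air went from 0.025 to -0.0097 with every library scaled to the same total, -0.0063 without air replicate 3 and -0.0066 without it and those 3 libraries. The members past the threshold in high smoke against air numbered 21 (10.1%, against 16.3% of all genes tested). With every library scaled to the same total they numbered 32 (15.4% against 18.7%, median difference -0.10). With only the 2 groups fitted they numbered 9 (4.33% against 9.37%), and with the exact rank-sum test 8 (3.85% against 5.18%). Without high smoke replicates 1, 3 and 7 they numbered 0, against 0.861% of all genes. In high smoke against low smoke they numbered 6 (2.88%, against 6.78% of all genes). A mean of at least 1 gave 3 (1.33% against 4.61%), and every library scaled to the same total gave 10 (4.81% against 7.26%). The exact rank-sum test gave 0 (36 unadjusted), against 1.27% of all genes. Without those 3 libraries there were 0, where 0% of all genes passed. After seeing the data, air replicate 3 was left out as well, which gave 0 in both comparisons, against 1.05% and 0% of all genes. Leaving out 1 library at a time gave 10 (without high smoke replicate 3) to 31 (without air replicate 3) members against air, with 11 without high smoke replicate 1. All genes that passed numbered 1461 without high smoke replicate 3 and 1453 without high smoke replicate 1, against 2343 with all libraries. No count of all genes is given here beside the 31. Against low smoke single omissions gave 0 (without low smoke replicate 2 or high smoke replicate 1, 3 or 7) to 13 (without high smoke replicate 4 or 6). The count was 1 to 3 without air replicate 1 or low smoke replicate 1, 3, 4 or 8, and 11 without air replicate 3. All genes that passed there numbered 977 with all libraries and 29 to 51 without high smoke replicate 1, 3 or 7. They numbered 296 without low smoke replicate 2, and 1651 and 1575 without high smoke replicates 4 and 6. Without low smoke replicates 1, 3, 4 and 8 they numbered 316, 550, 399 and 739. Without air replicates 1 and 3 they numbered 806 and 1280. Single omissions gave 0 members in low smoke against air. Over these single omissions the medians ranged from -0.04 to -0.01 against air, -0.05 to -0.02 against low smoke and -0.01 to 0.03 in low smoke against air. Against air, Zfp524, Zfp637, Zfp161, Zfp394, Zfp672, Zfp512, Zfp182, Zfp612 and Zfp317 kept their calls in all 22 single omissions. The other 12 members lost theirs in at least 1. Of these 12, Zfp426 kept its call in 8 of the 22, Zfp282 in 12, and Zfp503, Zfp703 and Zfp629 in 14. Zfp827 kept it in 15, Zfp17 and Zfp131 in 16, Zfp184 in 18, Zfp133 in 19, Zfp445 in 20 and Zfp9 in 21. Zfp524, Zfp672, Zfp512 and Zfp317 also kept theirs in all 11 alternatives other than leaving out libraries. Zfp637, Zfp161, Zfp182 and Zfp612 lost theirs in the exact rank-sum test (adjusted p from 0.0566 to 0.0721). Zfp394 lost its call with every library scaled to the same total. Among the other 12 members, Zfp282 kept its call in 5 of these 11 alternatives, and Zfp426 and Zfp503 in 7. Zfp703, Zfp184 and Zfp629 kept it in 8, Zfp133, Zfp445, Zfp17 and Zfp827 in 9, and Zfp131 in 10. Zfp9 was tested in 10 of them and kept it in 9. The cause of these changes was not tested. No paired analysis was possible because no label ties a rat of 1 group to a rat of another.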
